A study of Mus musculus with 12 samples.

Results

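Neurospheres, floating balls of neural stem cells and their progeny, were compared after 108 and 24 hours of culture. They formed the control arm of a study of the stem cell surface protein prominin (CD133). The comparison takes 6 of the series' 12 arrays: the 3 whose titles name 108 hours and Control, and the 3 whose titles name 24 hours and Control. In both groups the cells came from mouse cortex of gestational day 12.5 and grew in serum-free medium with basic fibroblast growth factor (FGF) and epidermal growth factor, each at 20 ng/ml, and leukemia inhibitory factor (LIF) at 0.15 ng/ml. Controls are described as kept in growth medium alone, whereas the series' design text speaks of GFP or prominin positive neurospheres, so whether the controls carried a GFP virus is not settled. The strain of the cultured cells is not given in the sources used here. The other 6 arrays hold neurospheres given an adenovirus that expressed CD133/R-prominin1, at the same culture times by their titles. The treatment text of the 24-hour prominin samples also names 108 hours, and the titles were followed, so every prominin value below rests on them.

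Each array carried 1 µg of neurosphere total RNA labelled with Cy5 beside 1 µg of RNA from whole C57/Bl6 embryos of gestational day 12 labelled with Cy3, with no dye swap. A value is the deposited log2 ratio of the 2 channels, centred here on each array. The labels do not state which channel is the numerator. Astrocyte genes had medians between 3.71 and 5.10 on the 6 control arrays, and genes of muscle, liver, skeleton and other embryonic tissue between -7.78 and -3.84, so a higher value is taken, as likely, to mean more RNA in neurospheres relative to the embryo. After centring, 0 is the array's typical ratio, not equal RNA in the 2 samples. Whether replicates were separate cultures is not said in the labels, and a p-value then reflects only how far these samples spread, which may be technical.

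Neurospheres grow because mitogens keep radial glia-like progenitors dividing. A progenitor that enters S phase expresses the helicase, polymerase and nucleotide synthesis genes of DNA replication, and one that approaches division expresses the kinases, motor proteins and cyclins of mitosis. Progeny that leave the cycle take on features of neurons, astrocytes or oligodendrocytes, and astrocytes make much of the brain's apolipoprotein E and clusterin. In RNA of whole cultures, fewer cells of a type and less RNA per cell cannot be told apart.

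The arrays of the 2 culture times differed in signal. Of 21738 probes, the 24-hour control arrays gave a usable ratio for 10404, 14363 and 14341, and the 108-hour arrays for 16598, 16486 and 16385. Ratios of small whole numbers (both at most 9), a mark of dim spots, made up 54.7%, 29.8% and 44.1% of the measured values at 24 hours against 6.66%, 5.97% and 4.89% at 108 hours. The groups did not overlap in either measure, and replicate 1 at 24 hours had the fewest usable probes. The prominin arrays showed the same split by time, with 41.6% to 50.1% small ratios at 24 hours and 3.04% to 8.92% at 108 hours. Array quality and culture time cannot be told apart here, and no scan or hybridization batch is named in the labels. Correlations between control arrays across probes were 0.655 to 0.755 within 24 hours, 0.668 to 0.737 within 108 hours and 0.552 to 0.748 across the times.

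**Figure D1:**
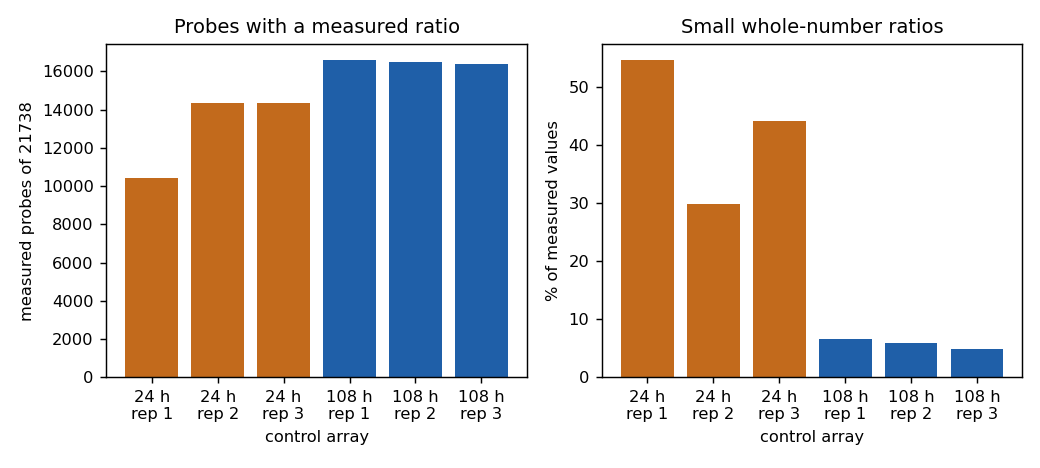
Bars give, for each control array, the number of probes with a usable ratio (left) and the percentage of measured values that are ratios of small whole numbers (right). The 3 arrays at 24 hours (orange) have fewer usable probes and more small ratios than the 3 at 108 hours (blue).

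No probe passed the test for a difference between 108 and 24 hours after adjustment for all probes tested. Of 11737 probes with at least 2 values in both control groups, 0% passed limma's adjusted p of 0.05, with a smallest adjusted p of 0.331. The same held for 0% of 9711 genes, whose smallest limma adjusted p was 0.286. At an unadjusted p under 0.05 there were 762 probes (6.49% of those tested), 285 higher (2.43%) and 477 lower (4.06%) at 108 hours. A probe's residual SD had a median of 1.28 on the log2 scale and the difference a median SE of 1.08. Every difference given below therefore describes these 6 arrays. With 3 arrays against 3 an exact two-sided permutation test of a single gene cannot go below 0.1. The genes named next, chosen for groups that do not overlap, gave that value except Scarb1, at 0.2.

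The 12 higher and 12 lower named genes below had the smallest p among named probes measured on at least 5 of the 6 arrays whose groups do not overlap. Over all probes, 8.61% were higher and 11.3% lower at 108 hours with no overlap, so lack of overlap alone is common. The limma adjusted p of these genes ran from 0.331 to 0.625.

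Apoe, Clu, Fads2 and Scarb1 were among the genes that lay higher at 108 hours. Apoe, the main lipid-carrying apolipoprotein of brain, lay at -2.0, -0.90 and -1.46 at 24 hours and at 1.76, 1.47 and 1.01 at 108 hours. The difference was 2.87 ± 0.57 (SE, 3 arrays a group; limma adjusted p = 0.507). Every 24-hour value was below the array's typical ratio and every 108-hour value above it. Clu, which encodes the secreted chaperone clusterin, lay at 0.10, 0.85 and 0.86 and then at 4.24, 2.78 and 3.24. Its difference was 2.82 ± 0.63 (limma adjusted p = 0.625). Both genes were measured on all 6 arrays, and none of their values was a small whole-number ratio. Fads2, a fatty acid desaturase, lay at -1.81, -0.81 and -1.25 and then at 1.86, 3.16 and 1.95, a difference of 3.61 ± 0.81. Scarb1, the receptor for high-density lipoprotein, was measured on 2 arrays at 24 hours, at -4.48 and -4.06, and lay at 0.68, 1.32 and -1.64 at 108 hours. The Scarb1 values at 108 hours were spread more widely than those of Fads2.

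Other genes on the high side had mixed roles. Zfp455, a zinc finger gene, lay at -4.04 and -4.55 at 24 hours and at 0.88, 0.63 and 0.86 at 108 hours, and with a difference of 5.09 ± 0.76 it shared the smallest limma adjusted p, 0.331. Id3, an inhibitor of basic helix-loop-helix factors that BMP signals induce, lay at -6.36 and -4.38 and then at -1.58, -1.58 and -2.11. Tagln3, a calponin-family gene of neurons, lay at -1.28, 0.49 and -0.44 and then at 2.28, 1.5 and 2.83. Replicates were tight in Zfp455 and wider in the other 2 genes, where neither group reached the other. Hba-a1, an adult alpha-globin chain, lay at -4.19, -4.62 and -5.78 and then at -1.03, -2.98 and -1.91, below 0 throughout, and its probe may also detect the near-identical Hba-a2. Jmjd8, a protein of the endoplasmic reticulum, differed by 3.00 ± 0.71. The differences of the adaptor Crkl (5.37) and the phosphatase subunit Ppp2r3c (4.94) rest on only 2 arrays at 108 hours. For these genes and the phosphatase Dusp12 (3.70), some other probes of the same gene differed in sign. Averaging all probes before the fit brought these 3 differences to 1.04, 0.40 and 0.81, and 2 of the 24-hour values of Ppp2r3c and of Dusp12 were small whole-number ratios.

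**Figure D2:**
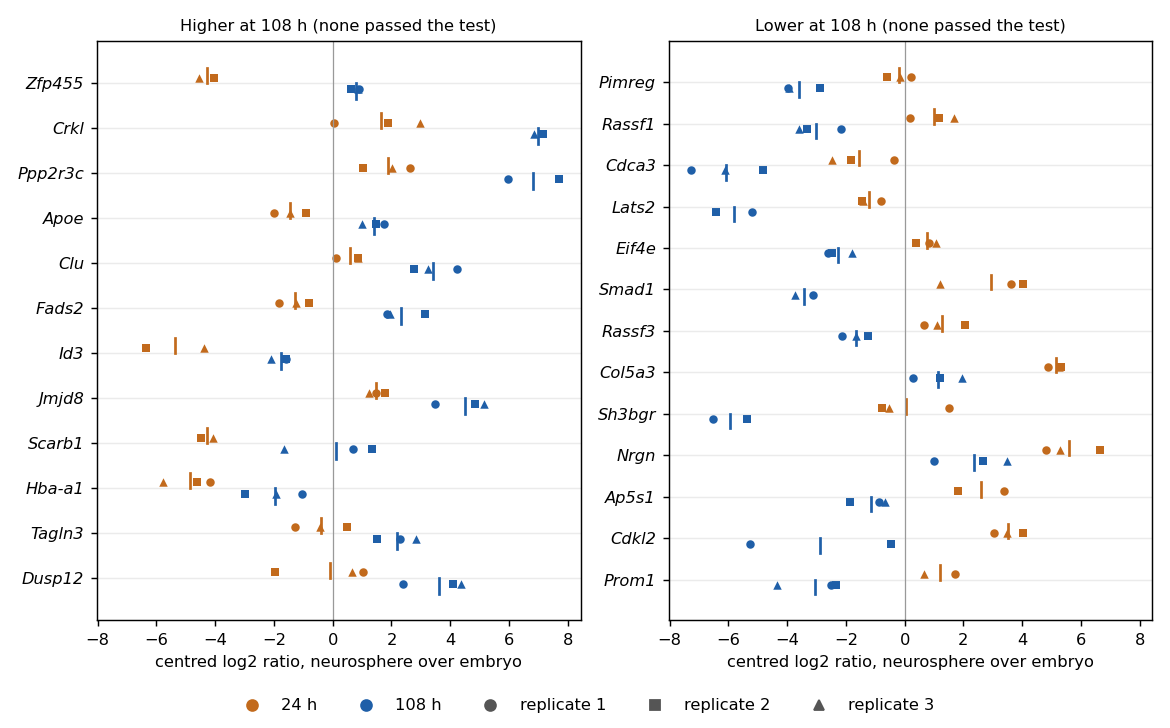
Each symbol is the centred log2 ratio (neurosphere over embryo, as taken here) on 1 control array, at 24 hours (orange) or 108 hours (blue), with marker shape for the replicate and a short line for the group mean. The 12 genes at left lie higher and the 13 at right, Prom1 included, lower at 108 hours with no overlap, and none passed the test.

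Mitotic genes stood among the named genes that lay lower at 108 hours. Pimreg, a regulator of the step from metaphase to anaphase, lay at 0.21, -0.59 and -0.17 at 24 hours and at -3.96, -2.88 and -3.94 at 108 hours. The difference was -3.41 ± 0.58 (SE, 3 arrays a group; limma adjusted p = 0.331). Cdca3, a trigger of mitotic entry, lay at -0.36, -1.81 and -2.46 and then at -7.28, -4.84 and -6.10, a difference of -4.53 ± 0.92 (limma adjusted p = 0.507). In both genes all 6 arrays gave a value, none of them a small whole-number ratio, and no 108-hour value reached a 24-hour value.

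The remaining low genes had signalling, matrix and neuronal roles. Rassf1, a tumour suppressor that binds microtubules, lay at 0.17, 1.18 and 1.69 and then at -2.15, -3.34 and -3.60, and its relative Rassf3 at 0.68, 2.07 and 1.09 and then at -2.13, -1.23 and -1.64. Eif4e, which binds the messenger RNA cap, lay at 0.82, 0.38 and 1.05 and then at -2.60, -2.47 and -1.78. Col5a3, a fibrillar collagen chain, lay at 4.89, 5.33 and 5.26 and then at 0.27, 1.20 and 1.94. The 3 replicates at 24 hours were close together in Eif4e and Col5a3, but 2 of the 3 in Eif4e were small whole-number ratios. Nrgn, the calmodulin-binding postsynaptic protein neurogranin, lay at 4.82, 6.64 and 5.29 and then at 0.99, 2.65 and 3.48. Differences of -4.60 for the Hippo kinase Lats2, -6.37 for the BMP signal mediator Smad1, -6.0 for Sh3bgr and -6.38 for the kinase Cdkl2 rest on only 2 arrays at 108 hours. The difference of -3.72 for Ap5s1, an adaptor complex subunit, rests on 2 arrays at 24 hours. Every 24-hour value of Smad1 and Cdkl2 was a small whole-number ratio, and a further Lats2 probe differed by 0.11, which brought the mean over its probes to -1.49.

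Prom1, which encodes prominin itself, was measured at 1.72 and 0.66 on 2 arrays at 24 hours and at -2.51, -2.33 and -4.34 at 108 hours. The difference was -4.25 ± 0.91 (limma adjusted p = 0.625). The groups did not overlap, but both 24-hour values and 1 of the 108-hour values were small whole-number ratios.

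Cell division genes lay lower at 108 hours as a group. Of 28 mitosis genes, 27 were on the array and 19 had enough values to be tested; 17 of the 19 were lower and 2 higher, none passed the test, and the median difference was -1.64 against -0.10 for all genes. Over all genes 46.5% were higher and 53.5% lower. Groups did not overlap in 6 mitosis genes, all lower at 108 hours, beside 11.1% of all genes lower with no overlap. On the 12 mitosis genes measured on all 6 arrays, the list median was -1.14, -1.04 and -1.62 at 24 hours and -2.12, -3.01 and -3.27 at 108 hours. The 3 later arrays lay below the 3 earlier ones, and relative to all genes the median stayed between -1.57 and -1.13 under every alternative processing tried. Small whole-number ratios made up 14.5% of the 24-hour values of mitosis probes, below the 32.7% over all tested probes, and 0% at 108 hours.

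Within the mitosis list, Cdk1, the kinase that drives entry into mitosis, lay at -1.80, -0.68 and -1.26 at 24 hours and at -3.48, -3.67 and -7.71 at 108 hours. Nusap1, a spindle protein, lay at 0.04, -0.14 and -1.78 and then at -3.57 and -4.39 on 2 arrays. Nek2, a centrosome kinase, lay at 0.88 and 2.15 on 2 arrays and then at -1.19, -0.86 and -1.89. The groups did not overlap in these 3 genes, and 108-hour replicate 3 of Cdk1 lies far below the other two. Aurka, the Aurora A kinase, lay at 0.33, -0.38 and -2.96 and then at -3.40, -2.96 and -2.76, so 24-hour replicate 3 lay among the later arrays. Their gene-level limma adjusted p lay between 0.520 and 0.734. Ube2c, the ubiquitin-conjugating enzyme of the anaphase-promoting complex, differed by -1.26 ± 0.59, and the checkpoint kinase Bub1 by -2.06 ± 0.98. The proliferation marker Mki67 differed by -1.09 ± 0.83, with overlapping groups. The exceptions were Aurkb (0.63 ± 0.89) and Cdc20 (0.50 ± 0.92).

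**Figure D3:**
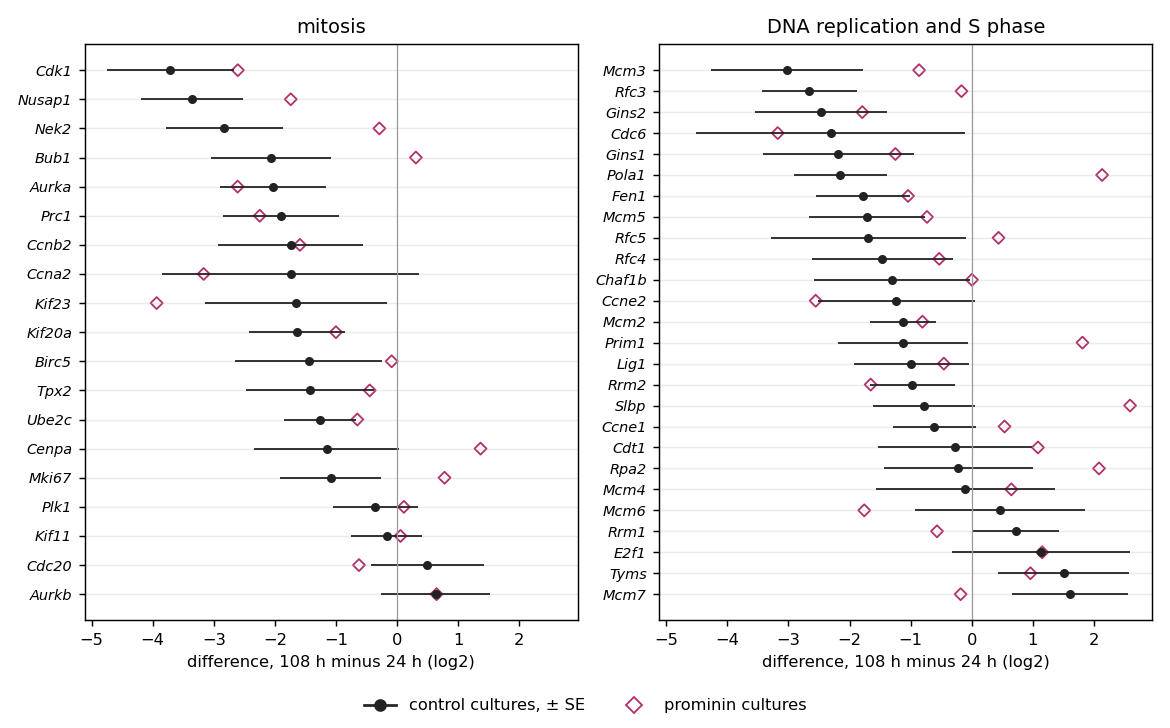
Points give the difference between 108 and 24 hours (log2) in control cultures with its SE for each tested mitosis gene (left) and DNA replication or S phase gene (right), and open diamonds the same difference in prominin cultures. Points lie left of 0 for 17 of 19 mitosis genes and 21 of 26 S phase genes.

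Mitotic promoters carry known sequence elements, shown here because the mitosis list had the lowest median of all lists. TTTGAA is the core of the cell cycle genes homology region, through which the DREAM complex represses late cell cycle genes, and CCAAT is the box bound by NF-Y. Both were searched on both strands in RefSeq windows of GRCm38.p6 from 250 bases before to 50 after a gene's start. TTTGAA stood in 75% of 16 windows of 15 tested mitosis genes against 17.9% of 32851 windows of all genes, and CCAAT in 87.5% against 37.4%. Both motifs stood together in 75% of mitosis windows, 6.95% of all windows, 3.85% of 26 windows of S phase genes and 0% of 18 windows of astrocyte genes. The windows of Cdk1 (chr10:69352863-69353162, minus strand), Cdca3 (chr6:124829926-124830225, plus strand), Ube2c (chr2:164769679-164769978, plus strand) and Aurka (chr2:172370521-172370820, minus strand) show both elements near the start of 4 genes described here, chosen because they hold both. The windows of Nek2 and Bub1 hold CCAAT but not TTTGAA, that of Nusap1 holds neither, and that of Cdc20, which lay higher at 108 hours, holds both. They read 5′ to 3′ toward the gene, with TTTGAA and CCAAT in capitals, written TTCAAA and ATTGG where they lie on the other strand.
Cdk1: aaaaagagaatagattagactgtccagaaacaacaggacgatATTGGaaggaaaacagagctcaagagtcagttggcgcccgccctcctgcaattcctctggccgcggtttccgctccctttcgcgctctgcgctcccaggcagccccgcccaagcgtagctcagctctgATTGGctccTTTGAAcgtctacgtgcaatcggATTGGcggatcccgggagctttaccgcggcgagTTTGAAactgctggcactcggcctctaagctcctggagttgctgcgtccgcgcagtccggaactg
Cdca3: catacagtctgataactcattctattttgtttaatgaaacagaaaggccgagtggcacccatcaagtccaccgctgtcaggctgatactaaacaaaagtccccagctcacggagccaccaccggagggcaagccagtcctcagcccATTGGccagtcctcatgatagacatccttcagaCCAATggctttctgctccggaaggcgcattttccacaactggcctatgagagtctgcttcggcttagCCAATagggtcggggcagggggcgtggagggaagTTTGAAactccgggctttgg
Ube2c: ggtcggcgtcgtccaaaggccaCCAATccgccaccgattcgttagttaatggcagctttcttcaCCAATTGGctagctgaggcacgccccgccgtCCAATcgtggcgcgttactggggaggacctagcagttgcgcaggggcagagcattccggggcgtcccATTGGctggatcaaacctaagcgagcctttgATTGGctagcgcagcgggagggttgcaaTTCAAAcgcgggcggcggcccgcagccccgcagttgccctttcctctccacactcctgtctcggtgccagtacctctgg
Aurka: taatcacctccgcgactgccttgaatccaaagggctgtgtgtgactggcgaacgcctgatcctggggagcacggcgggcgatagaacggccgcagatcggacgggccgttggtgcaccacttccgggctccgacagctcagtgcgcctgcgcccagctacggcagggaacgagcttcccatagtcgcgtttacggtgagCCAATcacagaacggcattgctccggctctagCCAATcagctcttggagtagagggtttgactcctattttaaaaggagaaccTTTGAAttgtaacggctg
A match describes the letters in the window and is not evidence of a bound site. The shares describe a list written from general knowledge of mitosis genes. Whether the motifs bear on the difference with time was not tested.

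DNA replication genes leaned the same way by a smaller amount. Of 31 such genes 26 were tested; 21 were lower, 5 higher and none passed, with a median difference of -1.12. Groups did not overlap in 6 genes, all lower at 108 hours, beside 11.1% of all genes lower and 8.1% higher with no overlap. Rfc3, a subunit of the clamp loader, lay at -0.76, 1.51 and 0.78 and then at -3.16, -1.25 and -2.04. Pola1, the catalytic subunit of the priming polymerase, lay at -0.34, -1.60 and -1.28 and then at -3.25 and -3.20 on 2 arrays. Fen1, the flap endonuclease, lay at 0.20, -2.13 and -2.30 and then at -3.24, -2.73 and -3.61. No 108-hour value of these genes reached a 24-hour value, yet their gene-level limma adjusted p were 0.585, 0.674 and 0.734. Among helicase subunits, Mcm3 differed by -3.02 ± 1.24 and Mcm2 by -1.12 ± 0.54, whereas Mcm7 differed by 1.61 ± 0.95. Without centring the arrays, which moved the median of all genes from -0.10 to 0.58, 65.4% of S phase genes and 78.9% of mitosis genes were lower, against 31.6% of all genes.

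Regulators of the G1 phase showed no common direction, with 9 higher and 9 lower of 18 tested. Ccnd2, the mitogen-induced cyclin D2, lay at 0.69, 1.28 and 1.87 at 24 hours and at -1.17, 0.20 and -1.65 at 108 hours (difference -2.15 ± 0.70). Cdkn1c, the inhibitor p57, lay at -4.15, -6.36 and -6.35 and then at -3.32, -3.88 and -3.06 (2.20 ± 0.77). Cdkn1a, the inhibitor p21, was measured at -0.18 and 2.51 and then at 2.76, 6.71 and 3.21 (3.06 ± 1.19). The cyclin was lower and both inhibitors higher at 108 hours without overlap, each at a gene-level limma adjusted p of at least 0.639. In the whole list 2 genes were higher and 4 lower without overlap, beside 8.1% and 11.1% of all genes.

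Of the genes that FGF, EGF and LIF signals induce, 21 of 26 were tested, and 16 were lower, 5 higher and none called, with a median of -0.61. Dusp6, a feedback phosphatase of the ERK pathway, lay at 1.56, 3.49 and 1.87 and then at -0.58, -0.78 and 1.64. Errfi1, a feedback inhibitor of the EGF receptor, lay at 3.16, 3.92 and 1.77 and then at 1.19, -0.06 and 0.98. Etv1, a transcription factor downstream of FGF, went the other way, at 4.18, 3.61 and 3.24 and then at 6.82, 6.38 and 5.61. Groups overlapped in Dusp6 and not in the other 2. Across this list 1 gene was higher and 5 lower without overlap, beside 8.1% and 11.1% of all genes. Without centring the arrays, 42.9% of the list was lower, against 31.6% of all genes. Immediate early genes divided 10 higher and 9 lower; Fos differed by -1.83 ± 0.77 and Nr4a2 by -2.51 ± 1.00.

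Markers of neural stem cells and radial glia showed no common direction, with 14 higher and 9 lower of 23 tested and a median of 0.10. Groups did not overlap in 2 that were higher and 2 that were lower, Id3 and Prom1 among them. Over all genes, 8.1% were higher and 11.1% lower with no overlap, so this is common. Sox2 lay at 3.73, 3.04 and 4.43 and then at 3.83, 2.85 and 3.41. Fabp7, the brain fatty acid binding protein, lay at 4.33, 3.94 and 2.84 and then at 4.06, 3.36 and 3.99. Nes, which encodes nestin, differed by 0.04 ± 0.75 and Vim by -0.58 ± 0.52. In Sox2 and Fabp7 the times overlapped, and all values of these markers of the labelled cell type were well above 0. By contrast, Id3 lay below 0 on every control array that measured it, and Prom1 on every control array at 108 hours.

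Astrocyte markers leaned higher at 108 hours, with 11 of 15 tested genes higher, none called and a median of 0.94. On the 11 measured on all 6 arrays the list median was 3.71, 5.10 and 3.88 at 24 hours and 4.51, 4.69 and 4.71 at 108 hours, so the arrays of the 2 times overlapped. Besides Apoe and Clu, the metallothionein Mt1 lay at -0.96, -1.66 and -1.75 and then at 0.54, 0.74 and 0.69 (2.11 ± 0.60), while Mt3, the brain metallothionein, lay at 7.22, 7.0 and 6.44 and then at 5.31, 4.69 and 5.07 (-1.86 ± 0.70). The defining marker Gfap was high at both times, at 8.33, 10.04 and 8.09 and then at 8.55, 6.69 and 8.10, and S100b differed by -0.69 ± 0.66. The 2 metallothioneins thus lay on opposite sides, and Gfap overlapped. The median relative to all genes went from 1.03 to 0.25 when the top code was kept as a value. Of the 17 astrocyte genes then tested, 8 were higher and 9 lower (52.9%), against 58.4% of all genes lower.

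Neuronal genes divided 11 higher and 10 lower of 21 tested, with a median of 0.10. On the 14 measured on all 6 arrays the list median was -0.74, -1.61 and -0.82 at 24 hours and 0.01, 0.26 and -0.19 at 108 hours, without overlap. Gap43, the growth cone protein, lay at 1.73, 1.93 and 1.24 and then at -0.05, -0.02 and -0.15 (-1.71 ± 0.52). Mapt, which encodes tau, lay at -0.88, -2.81 and -1.45 and then at 0.07, 1.59 and -0.19 (2.21 ± 0.94). These 2 neuronal genes thus lay on opposite sides with no overlap. Among 11 tested oligodendrocyte genes, 7 were higher and 4 lower; Olig1, a lineage transcription factor, lay at 6.78, 7.12 and 6.15 and then at 5.12, 4.97 and 4.19 (-1.92 ± 0.67). Small whole-number ratios made up 57.6% of the 24-hour values of that list, and setting them to missing moved its median relative to all genes from 0.26 to -1.10.

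No gene of the signalling pathways of the stem cell niche passed the test. Notch pathway genes were 8 higher and 10 lower of 18 tested, with a median of -0.25, and 1 of them, higher at 108 hours, had groups that did not overlap. BMP, TGF-beta and Id genes were 7 higher and 12 lower of 19 tested, 1 and 4 of them without overlap; beside Id3, Id1 differed by 1.30 ± 0.67 and Id2 by 1.33 ± 0.69 with overlapping groups. Wnt and hedgehog genes were 9 higher and 18 lower of 27 tested, 4 and 8 of them without overlap beside 8.1% and 11.1% of all genes, with a median of -0.80 relative to all genes that became 0.12 without 108-hour replicate 3. Wnt7a lay at 2.61 and 3.81 and then at 4.83, 6.07 and 5.24, and Wnt3 at 0.46, -0.04 and -2.06 and then at -2.46 and -7.46. The Wnt ligands lay on opposite sides.

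Ribosomal protein genes differed little in level but often without overlap. Of 62 tested, 36 were higher, 26 lower and none called, with a median of 0.17; 15 were higher and 3 lower with no overlap, beside 8.1% and 11.1% of all genes. Rpl41 lay at -1.22, -0.51 and -1.03 and then at 0.70, 0.40 and 0.99 (1.61 ± 0.58), and Rplp1, of the ribosomal stalk, differed by 1.37 ± 0.61. Only 2.14% of their 24-hour values were small whole-number ratios. Pseudogenes closely resemble many ribosomal protein genes, so single members are uncertain. Oxidative phosphorylation genes were 34 higher and 20 lower of 54 tested, with a median of 0.15. Lysosome and lipid transport genes were 19 higher and 9 lower of 28, with a median of 0.25; the progranulin gene Grn lay at -2.28, -0.64 and -1.02 and then at 0.77, 5.85 and 0.20, and Ctsl, which encodes cathepsin L, differed by 1.12 ± 0.52.

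No marker of cells outside the neural lineage passed the test. Microglia and leukocyte genes were 3 higher and 12 lower of 15 tested, with a median relative to all genes of -0.81 that became -0.24 without 108-hour replicate 2. Endothelial and mural genes were 3 higher and 7 lower of 10, and fibroblast and meningeal genes 9 higher and 6 lower of 15. Erythroid genes were 2 higher and 7 lower of 9; Hba-a1 was higher, while the embryonic globins Hbb-y and Hba-x had means of -7.20 and -6.49 at 24 hours and -6.65 and -6.49 at 108 hours. Genes of other embryonic tissues were 7 higher and 11 lower of 18. Adult alpha-globin thus lay apart from the embryonic globins, and the part that other cell types play in any difference was not tested.

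**Figure D4:**
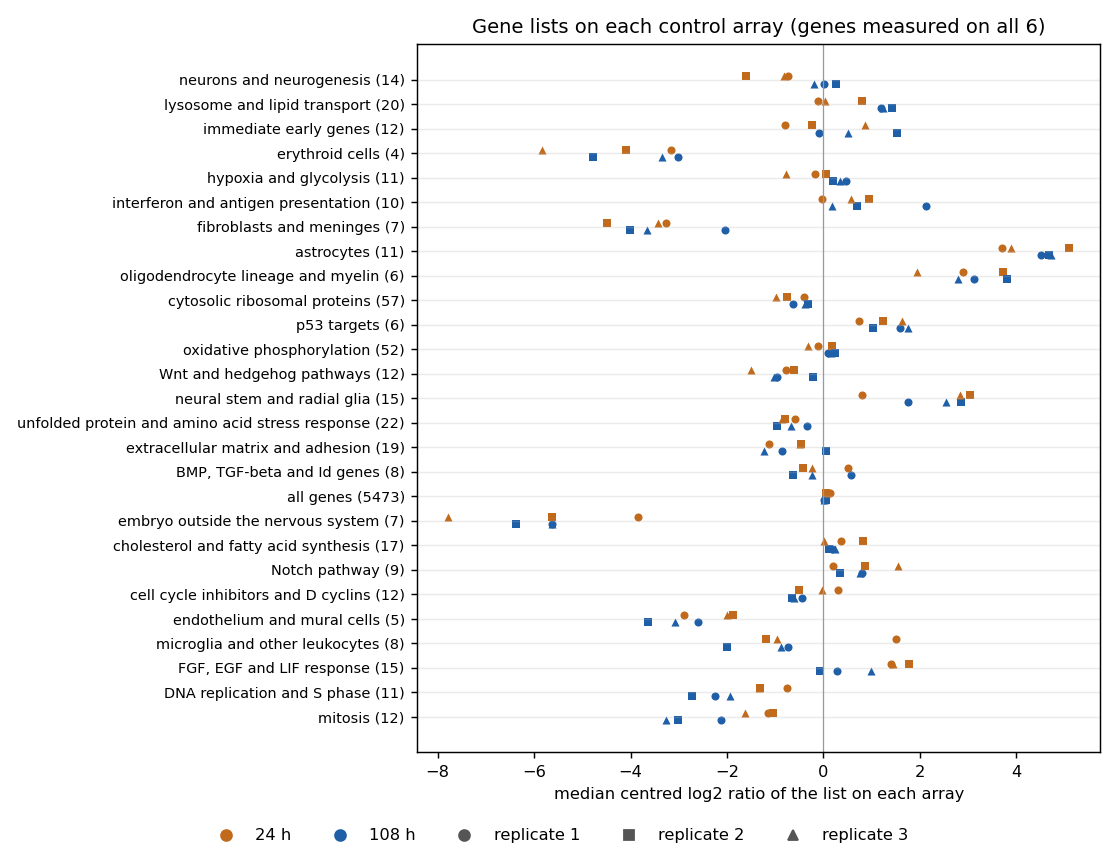
Each symbol is the median centred log2 ratio of a gene list on 1 control array, at 24 hours (orange) or 108 hours (blue), over the genes measured on all 6 arrays (number in parentheses). The mitosis and S phase lists, at the bottom, lie lower on each 108-hour array than on any 24-hour array, as does the FGF, EGF and LIF response list, while the neuronal, lysosome and hypoxia lists lie higher and the list of all genes stays near 0.

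The prominin cultures offer the same step in time on 6 other arrays, which share the reference RNA, the culture times and the split in array quality. Across 11080 probes the difference between 108 and 24 hours in controls and in prominin cultures correlated at r = 0.09, a description across probes that are not independent. Of 717 probes at unadjusted p under 0.05 in controls, 61.8% had the same sign in prominin cultures, against 52.9% of all probes. In prominin cultures 2 of 11084 probes (0.018%) passed limma's adjusted p of 0.05, among them Hba-a1, which rose by 6.19 ± 0.75 (limma adjusted p = 0.021). The difference between the 2 steps passed for 0% of 11084 probes, with a smallest limma adjusted p of 0.420 and 638 probes (5.76%) at an unadjusted p under 0.05.

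Of 24 named genes measured in both arms, 15 had the same sign. Apoe lay at -1.14, -1.52 and -1.57 and then at 0.68, 0.70 and 1.17 in prominin cultures, a step of 2.26 ± 0.57. Clu lay at 0.98, 0.98 and 0.33 and then at 2.70, 3.59 and 2.63, a step of 2.21 ± 0.63. Nrgn lay at 5.84, 5.38 and 6.04 and then at 2.84, 3.14 and 2.91, a step of -2.79 ± 0.75. In these 3 genes the times were apart in both arms, with limma adjusted p for prominin cultures of 0.321 to 0.361. Zfp455 (5.70) and Col5a3 (-5.53) also had steps of the control sign. Fads2 (-1.80), Crkl (-2.76) and Ppp2r3c (-3.08) had the opposite one, and the difference of the steps was -5.41 ± 1.14 for Fads2, -8.13 ± 1.26 for Crkl and -8.02 ± 1.26 for Ppp2r3c (limma adjusted p of 0.847, 0.420 and 0.478). Prom1 differed by 0.55 ± 1.00 with time in prominin cultures.

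Group by group, mitosis genes had a median step of -0.62 in prominin cultures and -1.64 in controls, and S phase genes -0.32 and -1.12. Cdk1 (-2.61) and Aurka (-2.61) had steps of the control sign, whereas Nek2 (-0.29) and Bub1 (0.31) lay nearer to 0. FGF, EGF and LIF response genes had medians of -0.92 and -0.61. Astrocyte genes had -0.18 in prominin cultures against 0.94 in controls, and ribosomal protein genes 1.72 against 0.17. Among markers from outside the neural lineage, only the erythroid and other embryonic lists had medians of opposite sign in the 2 arms. Erythroid genes had 0.98 in prominin cultures against -0.94 in controls, and genes of other embryonic tissues 1.57 against -0.54. Microglia and leukocyte genes had -0.08 against -0.90, and endothelial and mural genes -0.70 against -0.24. Fibroblast and meningeal genes had 0.90 against 0.04. No member of these lists passed the test of the difference between the 2 steps.

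**Figure D5:**
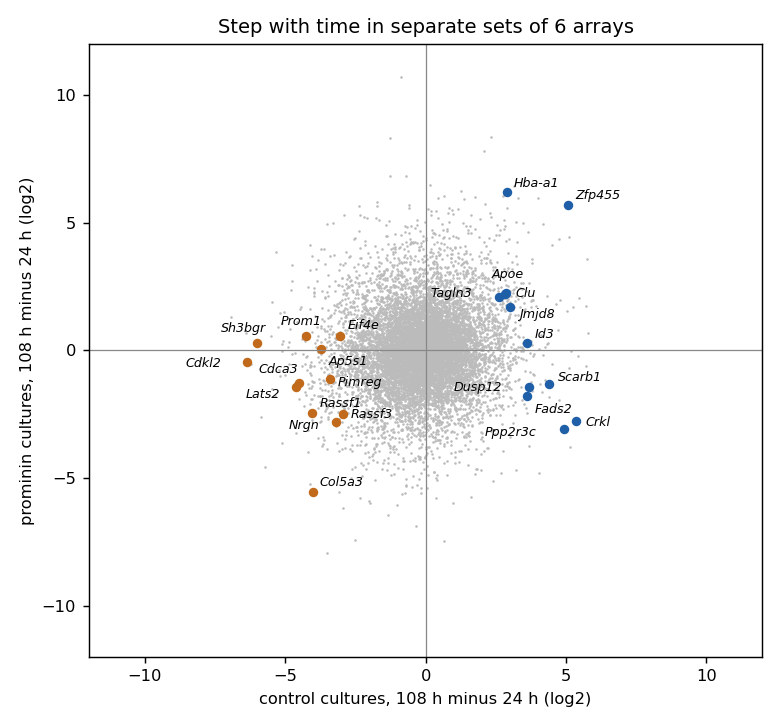
Each grey point is a probe, placed by its difference between 108 and 24 hours (log2) in control cultures (x axis) and prominin cultures (y axis); coloured points are the named genes, higher (blue) or lower (orange) in controls. The cloud has r = 0.09, and 15 of 24 named genes lie in the quadrants of equal sign.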

How the data were processed

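Per the labels, 12 two-colour mouse arrays set neurosphere RNA (Cy5) against embryo RNA (Cy3). The authors deposited 1 log2 ratio per probe and array; how the ratio was normalized, and which channel is its numerator, the sources do not state. Base 2 was read from the values, which include logs of small whole-number ratios. The median of the common probes lay between -2.04 and -0.84 on the control arrays, so the deposited values are not centred. Exact 0 and 16.61, codes without a measured ratio, were set to missing, and each array's median over the 4532 probes measured on all 12 was subtracted.

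Probes with at least 2 values in both control groups were fitted in limma 3.58.1 (R 4.3.3) with 1 mean for each of the 4 groups, so all arrays share 1 estimate of the spread; Benjamini-Hochberg adjustment ran over all tested probes at 0.05. A missing value left its array out of that probe's fit. Genes are means of their tested probes. Of 21738 probes, 15943 were named from the platform annotation updated by gene ID, 677 as given there and 323 by RefSeq accession; 113 had several genes and 4682 none. Named genes had the smallest unadjusted p among non-overlapping probes measured on at least 5 control arrays, passing over unnamed gene models; in each of 26 lists up to 4 members by p lead, and other members were named after their values were seen. The comparison and lists were chosen with earlier results of these data known, and a list gene too dim for 2 values in both groups drops out. The code was tested on simulated data. Alternatives changed the codes, centring, filters, variance model, samples and replicates. With only 3 arrays a group, precision is limited by their number.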

Additional observations from a re-analysis of the deposited data

How the results depend on the processing

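No probe passed limma's adjusted p of 0.05 under any alternative in which the top code stayed missing. With the top code kept as a value, 103 probes (4 higher, 99 lower) and 48 genes passed, as did 76 probes in the difference between the prominin and control steps; that code is far more frequent on 24-hour arrays. There Zfp455, Crkl, Apoe and Pimreg passed too, at limma adjusted p of 0.0293, 0.0425, 0.0291 and 0.0136. Leaving out each control array in turn gave 0 probes, 0 genes and 0 differences between the steps in every case. No named gene changed sign under any alternative run. Their groups do not overlap, so leaving out an array could not change the sign. Some had fewer alternatives, 16 for Smad1 against 21 for Apoe. Probes at an unadjusted p under 0.05 numbered 762, and 453 to 1236 over the alternatives. Relative to all genes, the list medians that kept their sign throughout were those of mitosis, S phase, growth factor response, microglia and erythroid genes (lower) and of astrocyte, hypoxia, lysosome, ribosomal, oxidative phosphorylation and p53 genes (higher); the other lists changed sign under at least 1 alternative.

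Replicate numbers gave no sign of pairing the samples, although correlations of deviations from 3-array means cannot show that pairing was absent. Same-numbered 24-hour and 108-hour deviations correlated at 0.007, 0.079 and -0.047, and only replicate 2 at 24 hours correlated best with its own number. With the replicate block 0 probes passed, with a smallest limma adjusted p of 0.667 in the fit of 12 arrays and 0.753 in that of the 6 control arrays. The fit of only the control arrays gives no value for the difference between the steps. Dim signal at 24 hours limits all values: 32.7% of tested 24-hour values were small whole-number ratios, against 3.2% at 108 hours.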

Other observations

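Further groups of genes were measured in the control cultures, none with a member that passed limma's adjusted p of 0.05. Hypoxia and glycolysis genes were 13 higher and 6 lower of 19 tested, with a median difference of 0.42. Ndrg1, a hypoxia-induced gene, had the smallest p of all 9711 genes, but from 2 arrays at each time: it lay at 1.63 and 3.05 at 24 hours and at -5.46 and -3.73 at 108 hours (-6.94 ± 0.94, SE; limma adjusted p = 0.286), while its step in prominin cultures was 1.29. Ldha, a lactate dehydrogenase subunit, lay at -1.21, 0.32 and -1.02 and then at 0.44, 0.71 and 0.27. Ndrg1 and Ldha thus lay on opposite sides, with overlap in Ldha.

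Genes of the unfolded protein and amino acid stress response were 13 higher and 14 lower of 27 tested. Groups did not overlap in 4 that were higher and 3 that were lower, beside 8.1% and 11.1% of all genes. Among the 4 were the endoplasmic reticulum chaperones Canx and Calr. Canx lay at -1.37, -2.66 and -2.51 and then at -0.77, 2.57 and -0.51. Calr lay at -1.45, -0.88 and -1.33 and then at 0.64, -0.46 and 0.19. Cholesterol and fatty acid genes were 12 higher and 10 lower of 22. Against Fads2, Lss, a sterol synthesis enzyme, differed by -2.29 ± 0.77. Among 15 tested p53 targets, 9 were higher and 6 lower; Gadd45a lay at 5.18, 6.30 and 5.91 and then at 3.82, 3.30 and 4.0 (-2.09 ± 0.57), opposite to Cdkn1a. Interferon and antigen presentation genes were 6 higher and 8 lower of 14, and extracellular matrix genes 15 higher and 17 lower of 32.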
